A study of Mus musculus with 9 samples.

Results

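Matrix metalloproteinases (MMPs), the ADAMTS proteases with their ADAMTS-like relatives, and the tissue inhibitors of metalloproteinases (TIMPs) were followed in pancreatic ductal adenocarcinoma (PDAC) cells with and without Yap. The members are the protein-coding genes whose mouse symbol is Mmp, Adamts, Adamtsl or Timp followed by a number. They are 50 of the 47643 genes in the count files, made up of 22 Mmp, 19 Adamts, 5 Adamtsl and 4 Timp genes. Tumor cells were sorted by fluorescence, and the RNA made 6 KPF libraries, from cells that were GFP+Yap+, and 3 KPYYF libraries, from cells that were Tm+Yap-. Both cohorts carried Trp53 frt/+, and in both the Pdx-Flp transgene removed the frt-flanked Trp53 allele and lit GFP in the pancreas. Both also carried the R26 FSF-CreER/Dual allele, and both were fed tamoxifen (TAM) once tumors could be felt. The KPYYF mice differed by Yap flox/flox. In a cell where TAM activated CreER, GFP was exchanged for tdTomato (Tm), and in KPYYF cells Yap was deleted as well. The KPF cells collected were those that had kept GFP despite TAM, and the KPYYF cells came from Tm+ nodules that regrew after Yap loss, so genotype, Yap status and reporter color cannot be told apart. The methods give a single age range, young to adult, for all mice of both sexes in the study, and the age behind each library is not given in the sources used here. The cells were freed with collagenase and trypsin before sorting, and KPF libraries 4504h and 4504s bear the same mouse number. Libraries are named here by group and mouse number.

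Between 8264587 and 9635514 reads per KPF library, and between 8116539 and 8725132 per KPYYF library, were counted on genes. Values are reads from 3′ end libraries scaled to an equal library size (CPM, with TMM factors), and differences are given as the log2 fold change of KPYYF over KPF (log2FC) with its standard error (SE). A count of 0 allows up to 3 reads, or 0.291 to 0.436 CPM depending on the library, and such limits cover counting error only. The deleted gene Yap1 was at 41.7 to 150 CPM in KPF and at 0.711, 2.84 and 7.10 CPM in KPYYF (log2FC -4.79, SE 0.72, adjusted p = 0.0159 by edgeR). Epithelial markers were counted in every library, with a summed level of 3158 to 8869 CPM in KPF and 542 to 1556 CPM in KPYYF, where 3 of the 7 (Krt18, Cdh1 and Muc1) had an adjusted p under 0.05. The sum of 8 fibroblast markers was 315 to 3925 CPM in KPF and 1088 to 2543 CPM in KPYYF. Macrophage markers summed to 9486 CPM in KPF library 4601 and to between 346 and 1489 CPM in all others. Neutrophil markers summed to 2045 CPM in KPF 4504s, 1242 CPM in KPF 4601 and at most 272 CPM elsewhere, and Ly6g, Csf3r and Cxcr2 had no read in at least 1 library of each group. Acinar enzyme genes summed to 19867 CPM in KPF 4504s and 5891 CPM in KPYYF 4449, against at most 989 CPM in the other libraries. Reads of Xist, which silences an X chromosome, numbered 71 to 159 in KPF 4269, 4515 and 4601 and at least 3452 in the other 6 libraries. Lymphocyte markers summed to at most 58.3 CPM and 5 endothelial markers to at most 55.8 CPM in any library. In sorted bulk RNA, fewer cells of a type and less RNA per cell cannot be told apart.

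MMPs are zinc proteases that cut collagens, proteoglycans and other matrix proteins, and are made as inactive precursors that another protease must open. ADAMTS proteases are secreted, bind the matrix through thrombospondin repeats, and include enzymes for proteoglycans such as versican and others that trim procollagens, while ADAMTS-like proteins have the binding domains without the protease. TIMPs block the active site of MMPs, and in PDAC these genes are known from tumor cells as well as from fibroblasts, neutrophils and macrophages of the dense stroma.

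More members were lower than higher in Tm+Yap- cells. Of the 50 members, 5 had no read in any library (Mmp1b, Mmp21, Adamts13, Adamts18 and Adamts19), 12 had reads but fewer than 100 over the 9 libraries, and 33 were tested. Among these 33, Adamtsl1 and Adamts15 fell and none rose at a Benjamini-Hochberg adjusted p under 0.05 in edgeR, where 0.794% of all 14105 genes tested were lower and 0.305% higher. By the looser rule of the study's methods, an unadjusted p under 0.05 with a more than 2-fold change, 9 members were lower and 4 higher, against 9.20% and 4.20% of all genes tested. All 3 KPYYF libraries were below all 6 KPF libraries in 4 members (Mmp7, Mmp15, Adamts15 and Adamtsl1) and above them in none, against 5.18% and 3.92% of all genes. Among the 6 libraries with Xist reads alone, 3 in each group, 13 members were lower and 0 higher without overlap, against 10.9% and 8.03% of all genes. The KPF libraries among them were 4435, 4504h and 4504s, and 4504h and 4504s bear the same mouse number. The log2FC was negative in 21 members and positive in 12, with a median of -0.77, and over all genes tested it was negative in 7518 and positive in 6587, with a median of -0.07. A gene read almost only in one group passed the minimum of 100 reads through that group alone. Among such genes were Mmp16, Mmp28, Adamts12, Adamts15, Adamts16 and Adamtsl1, so these counts describe the genes tested and not the families. With DESeq2's Wald test the adjusted counts were 7 lower and 3 higher, and with limma-voom none passed in either direction.

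**Figure D1:**
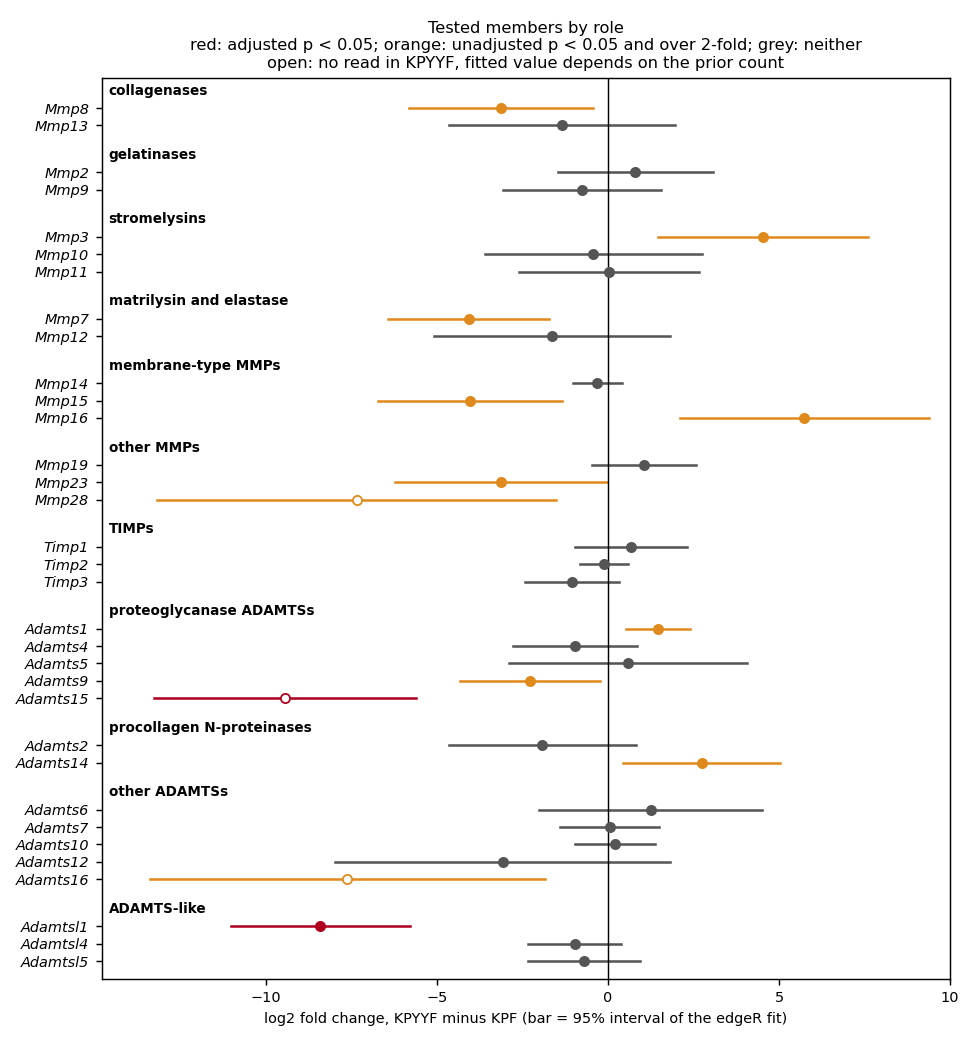
Log2 fold change of the 33 tested members (KPYYF minus KPF, x axis) grouped by role, with 95% intervals of the edgeR fit as bars. Adamts15 and Adamtsl1, in red, had an adjusted p under 0.05, and open circles mark genes with no read in KPYYF, whose fitted value depends on the prior count.

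A group of 9 Mmp genes stands side by side on mouse chromosome 9, next to the deleted gene itself: from Mmp13 (chr9:7272514-7283331) to Mmp7 (chr9:7692090-7699585), they lie 649 to 232 kb from Yap1 (chr9:7931999-8004596, GRCm38). This cluster holds collagenases, stromelysins, the matrilysin gene Mmp7 and the macrophage elastase gene Mmp12, and 6 of its 9 genes were tested. Several of its genes are textbook targets of AP-1, the Jun/Fos factor that binds TGANTCA. These letters were found on either strand within 250 bases before a RefSeq start in 7 of the 9 cluster genes, in none of the 26 other members with a promoter sequence at hand, and in 6.75% of 32851 RefSeq promoters. The motif GGAATG of the Tead factors, through which Yap acts on DNA, was found in 2 of 35 members (Adamts13 and Timp1, on either strand), against 12.6% of all promoters. A match of letters is a description and shows no binding. The 110 bases before the start are shown for the 5 cluster genes with the most to compare, 4 with the AP-1 letters (in capitals) and Mmp8 without them, in GRCm38.p6 from RefSeq, all on the plus strand. Mmp7 has a second listed start without a match, and Mmp12 matched only at the later of its listed starts, inside the gene. A gene was counted if any of its listed starts matched, whereas the shares of all promoters count each promoter.
Mmp13, chr9:7272404-7272513: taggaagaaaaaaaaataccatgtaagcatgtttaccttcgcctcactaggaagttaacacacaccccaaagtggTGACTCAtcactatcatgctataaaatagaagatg
Mmp3, chr9:7445712-7445821: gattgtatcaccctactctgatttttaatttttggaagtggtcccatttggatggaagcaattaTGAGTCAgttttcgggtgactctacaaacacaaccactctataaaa
Mmp10, chr9:7502232-7502341: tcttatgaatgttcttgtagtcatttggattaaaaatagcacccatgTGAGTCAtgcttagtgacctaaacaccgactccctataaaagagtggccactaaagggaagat
Mmp7, chr9:7691980-7692089: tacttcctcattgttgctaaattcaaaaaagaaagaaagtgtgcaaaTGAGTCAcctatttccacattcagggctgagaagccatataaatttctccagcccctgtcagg
Mmp8, chr9:7558319-7558428: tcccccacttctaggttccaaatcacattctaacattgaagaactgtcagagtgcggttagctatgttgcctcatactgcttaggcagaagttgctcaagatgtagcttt
The motif begins 35 bases before the start in Mmp13, 46 in Mmp3 and 63 in both Mmp10 and Mmp7.

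These neighbors did not move together. Mmp7 and Mmp8 were lower and Mmp3 was higher by the looser rule, while Mmp10, Mmp12 and Mmp13 passed neither rule. Mmp7 (ENSMUSG00000018623), the small matrilysin made by ductal and glandular epithelium, had 12.6, 75.2 and 419 CPM as the lowest, median and highest KPF value, and 11.2, 8.29 and 9.07 CPM in KPYYF libraries 4449, 4891 and 4938. The KPYYF libraries were low and close together, and the lowest KPF library, 4504h, lay just above them. Mmp7 had a log2FC of -4.08 (SE 1.06, adjusted p = 0.105). Of the 9 fits that left out a library it passed in 1, that without KPF 4504h (-4.32, adjusted p = 0.0313). In the others the adjusted p was 0.108 to 0.253. Mmp7 also passed with KPF 4504h and 4504s summed (adjusted p = 0.0198) and with DESeq2 (adjusted p = 4.53e-06). The adjusted p was 0.459 with limma-voom and 0.227 in the libraries with Xist reads. Without KPF 4504s the log2FC was -3.50. An antisense gene, AV064505, overlaps an exon of Mmp7, and the strand setting of the counting is not given in the sources used here. The epithelial marker sum was lower in the same 3 libraries, and its part in the lower Mmp7 values was not tested.

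Mmp3 (ENSMUSG00000043613), stromelysin-1, which cuts proteoglycans and opens other pro-MMPs, had 0.194, 2.95 and 17.3 CPM as the lowest, median and highest KPF value. In KPYYF it had 6.39 CPM in library 4449, 429 CPM in 4891 and 33.9 CPM in 4938. Libraries 4891 and 4938 exceeded every KPF library, whereas 4449 lay within the KPF range. For Mmp3 the log2FC was 4.54 (SE 1.36, adjusted p = 0.149), and it was 1.59 without KPYYF 4891 (adjusted p = 0.573). The other stromelysin genes overlapped fully, with Mmp10 at 0 to 18.8 CPM in KPF and 0 to 9.84 CPM in KPYYF, and Mmp11 at 0.442 to 22.3 CPM and 0.118 to 22.2 CPM. Neither approached the threshold (adjusted p = 0.929 and 0.993).

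**Figure D2:**
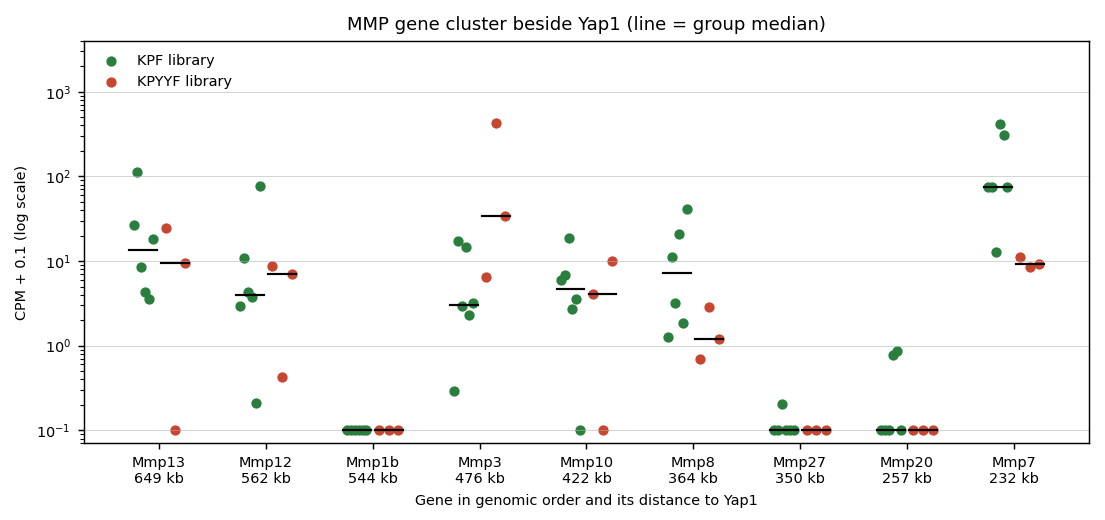
CPM plus 0.1 on a log axis for the 9 Mmp genes of the chromosome 9 cluster in genomic order, with the distance to Yap1 under each name, a point per library and a line at each group median. Mmp7 was below all KPF libraries in the 3 KPYYF libraries, Mmp3 reached 429 CPM in one of them, and Mmp1b had no read.

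Among the collagenases, which make the first break in fibrillar collagen, Mmp8 (ENSMUSG00000005800), the neutrophil collagenase, had 1.16, 7.10 and 40.8 CPM as the lowest, median and highest KPF value. Its KPYYF values were 0.592, 2.73 and 1.09 CPM in 4449, 4891 and 4938. The groups overlapped, and the highest values were those of KPF 4601 and, at 20.6 CPM, KPF 4504s. The log2FC of -3.14 (SE 1.25, adjusted p = 0.227) was -2.32 without KPF 4601 and -3.93 without KPYYF 4891. The 2 highest libraries for Mmp8 were also the 2 with the highest neutrophil marker sums, and S100a8, S100a9 and Retnlg were each highest there. Csf3r and Cxcr2 were highest in KPF 4601, and Csf3r was next highest in KPYYF 4449, at 7.22 CPM. Ly6g was highest in KPYYF 4449, at 23.0 CPM, against 13.1 CPM in KPF 4504s and 3.49 CPM in KPF 4601. KPYYF 4449 had the lowest Mmp8 value, and the part of these markers in the level of Mmp8 was not tested. The mean of Mmp8 over KPF libraries was 13.1 CPM with KPF 4601 and 7.54 CPM without it. Mmp13, the collagenase of bone and inflamed stroma, spread from 3.42 to 113 CPM in KPF and from 0 to 24.5 CPM in KPYYF (log2FC -1.35, SE 1.48, adjusted p = 0.723).

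The gelatinases, which digest denatured and basement membrane collagens, differed more between libraries than between groups. Mmp2 (ENSMUSG00000031740) had 15.4, 114 and 165 CPM as the lowest, median and highest KPF value, and 38.4, 453 and 15.4 CPM in KPYYF 4449, 4891 and 4938. KPYYF 4891 was the highest of all and KPYYF 4938 equaled the lowest KPF library at this rounding. Its log2FC was 0.80 (SE 1.01, 95% interval -1.46 to 3.06, adjusted p = 0.767), and it was -1.85 without KPYYF 4891. That library had the highest fibroblast marker sum of its group, 2543 CPM, and the KPF libraries with the least Mmp2, 4269 and 4601, had the lowest sums, 315 and 398 CPM. However, KPF 4504s and 4504h had higher sums than KPYYF 4891, 3925 and 2905 CPM, with Mmp2 at 165 and 145 CPM. KPYYF 4449 and 4938 had sums of 1317 and 1088 CPM, with Mmp2 at 38.4 and 15.4 CPM. The part of the fibroblast markers in the level of Mmp2 was not tested.

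Mmp9 (ENSMUSG00000017737), made chiefly by neutrophils and macrophages, had 7.84, 18.7 and 185 CPM as the lowest, median and highest KPF value, and 8.05, 26.3 and 46.8 CPM in KPYYF 4449, 4891 and 4938. Apart from the single high library, KPF 4601, the groups covered much the same range. Its log2FC was -0.77 (SE 1.04, 95% interval -3.08 to 1.55, adjusted p = 0.787) and turned to 0.59 without KPF 4601. Mmp12, the macrophage elastase, was likewise highest in KPF 4601, at 77.5 CPM, and at 0.110 to 10.9 CPM in all other libraries of both groups (log2FC -1.65, SE 1.56, adjusted p = 0.673). Without KPF 4601 the KPF mean dropped from 46.1 to 18.3 CPM for Mmp9 and from 16.5 to 4.33 CPM for Mmp12. KPF 4601 was also the library with the most macrophage marker reads. However, KPYYF 4938, with the next highest Mmp9 value, had a macrophage marker sum of 354 CPM. KPF 4504s, with the next highest sum, 1489 CPM, had Mmp9 at 36.9 CPM and Mmp12 at 3.63 CPM. The part of the macrophage markers in the levels of Mmp9 and Mmp12 was not tested. Mmp12 shares exon sequence with the antisense gene Mmp1b.

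**Figure D3:**
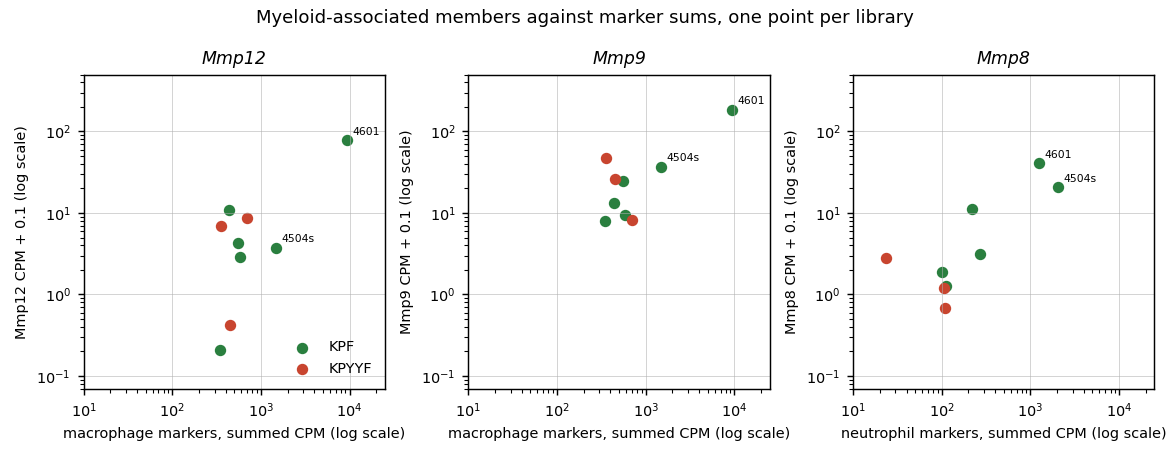
CPM plus 0.1 of Mmp12 and Mmp9 against the summed CPM of 7 macrophage markers, and of Mmp8 against that of 6 neutrophil markers, with a point per library on log axes. KPF 4601 held the highest value of each of the 3 genes, and KPF 4504s the second highest of Mmp8.

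Membrane-type MMPs act at the cell surface. Of the 6 genes 3 were tested, and none had an adjusted p under 0.05 in edgeR. By the looser rule Mmp15 was lower and Mmp16 higher. Mmp14 (ENSMUSG00000000957), which activates pro-MMP2 and cuts fibrillar collagen around invading cells, had 224, 389 and 525 CPM as the lowest, median and highest KPF value, and 325, 374 and 210 CPM in KPYYF 4449, 4891 and 4938. All libraries lay in a narrow band and the groups overlapped. Mmp14 had a log2FC of -0.32 (SE 0.34, adjusted p = 0.709), with a 95% interval of -1.04 to 0.41 that leaves room for a moderate change in either direction.

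Mmp15 (ENSMUSG00000031790), a membrane-type MMP found mostly in epithelia, had 11.4, 23.8 and 62.9 CPM as the lowest, median and highest KPF value. No read was counted in KPYYF 4449, and 4891 and 4938 had 0.218 and 4.81 CPM. All KPYYF libraries were below all KPF libraries. Mmp15 had a log2FC of -4.03 (SE 1.23, adjusted p = 0.137). Of the 9 fits that left out a library it passed in 1, that without KPYYF 4938 (-7.78, adjusted p = 0.0411). In the others the adjusted p was 0.139 to 0.276. It was 0.00122 with DESeq2, 0.175 with limma-voom and 0.332 in the libraries with Xist reads.

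Mmp16 (ENSMUSG00000028226) showed the opposite pattern, in KPYYF libraries 4449 and 4891 alone. It had 0, 0.0727 and 0.568 CPM as the lowest, median and highest KPF value, from 11 reads in all 6 libraries, and 19.5, 16.0 and 0 CPM in KPYYF 4449, 4891 and 4938. The first 2 KPYYF libraries were far above every KPF library, and the third was at the floor. With these values the log2FC was 5.74 (SE 1.69, adjusted p = 0.119), and the adjusted p was 0.0127 with DESeq2 and 0.0489 without a filter on low counts. With limma-voom the log2FC was 2.64 (adjusted p = 0.548), and filterByExpr left the gene out. Mmp17, Mmp24 and Mmp25 had too few reads for a test, the highest value being 5.74 CPM for Mmp24 in KPF 4515.

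Of the remaining MMPs, Mmp23 (ENSMUSG00000029061), a membrane-anchored MMP without a hemopexin domain, had 1.75, 13.9 and 31.7 CPM as the lowest, median and highest KPF value, and 5.09, 0.218 and 0 CPM in KPYYF 4449, 4891 and 4938. Libraries 4891 and 4938 were below all KPF libraries and 4449 lay between them. Its log2FC of -3.13 (SE 1.42, adjusted p = 0.303) was -6.99 without KPYYF 4449 (adjusted p = 0.0584). Mmp28 (ENSMUSG00000020682), epilysin, an MMP of resting epithelia, had 0, 1.73 and 6.83 CPM as the lowest, median and highest KPF value and no read in KPYYF. Read against 3 counts, it was at least 6.66-fold lower in KPYYF (adjusted p = 0.199), with 1 KPF library also at 0 and KPF 4601 the highest. Without KPF 4601, a comparison chosen after seeing the data, the bound was 3.93-fold and the gene had too few reads for a test. It also has the antisense gene 1700020L24Rik over its exons. Mmp19, at 14.5 to 122 CPM in KPF and 28.3 to 150 CPM in KPYYF, had a log2FC of 1.05 (SE 0.69, adjusted p = 0.507). Mmp20 and Mmp27, each with reads in KPF libraries only, stayed below 1 CPM.

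TIMP genes overlapped between Tm+Yap- and GFP+Yap+ cells. Timp1 (ENSMUSG00000001131), a secreted inhibitor often induced in injured tissue, had 38.3, 208 and 591 CPM as the lowest, median and highest KPF value, and 284, 232 and 682 CPM in KPYYF 4449, 4891 and 4938. KPYYF 4938 was the highest of all 9 libraries, and the other KPYYF libraries were within the KPF range. Over the groups the log2FC was 0.67 (SE 0.74, 95% interval -0.98 to 2.31, adjusted p = 0.728). Timp1 lies on the X chromosome, its 3 lowest values were those of the 3 KPF libraries with few Xist reads, and among the other 6 libraries its log2FC was -0.06.

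Timp2 (ENSMUSG00000017466), which both inhibits MMP2 and helps Mmp14 activate it, had 488, 963 and 1364 CPM as the lowest, median and highest KPF value, and 529, 1038 and 992 CPM in KPYYF 4449, 4891 and 4938. Every KPYYF value fell inside the KPF range. For a log2FC of -0.13 (SE 0.32, adjusted p = 0.900), its 95% interval of -0.83 to 0.57 was the narrowest among the TIMP genes.

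Timp3 (ENSMUSG00000020044), the matrix-bound TIMP that also inhibits ADAM17 and aggrecan-cutting ADAMTS enzymes, had 53.6, 362 and 519 CPM as the lowest, median and highest KPF value. It had 142, 225 and 81.1 CPM in KPYYF 4449, 4891 and 4938. The KPYYF libraries were in the lower part of the KPF range, above its lowest library. For Timp3 the log2FC was -1.05 (SE 0.63, 95% interval -2.43 to 0.33, adjusted p = 0.458). Timp4 was read in KPF 4269 (1.65 CPM) and KPYYF 4891 (1.31 CPM) only. Both Timp3 and Timp4 lie within synapsin genes on the other strand, and share exon sequence with Syn3 and Syn2.

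**Figure D4:**
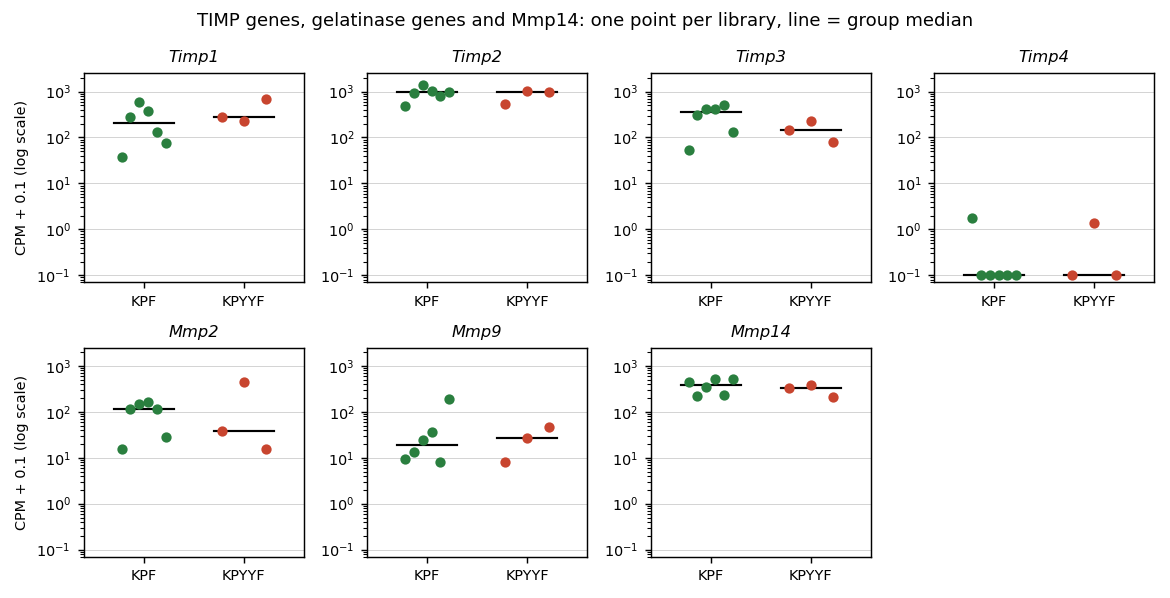
CPM plus 0.1 on a log axis for the 4 Timp genes, Mmp2, Mmp9 and Mmp14, with a point per library and a line at each group median. In all 7 genes the KPYYF values overlapped the KPF values, and Timp2 and Mmp14 varied least between libraries.

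Among the ADAMTS proteases of proteoglycans, Adamts15 fell, and Adamts9 was lower and Adamts1 higher by the looser rule. Adamts15 (ENSMUSG00000033453, chr9:30899155-30922452), an enzyme for versican and aggrecan, had 2.47, 5.40 and 22.4 CPM as the lowest, median and highest KPF value. Not a single read was counted in the 3 KPYYF libraries. The groups did not overlap, and the highest KPF values were those of 4504s and 4504h. Against 3 counts, Adamts15 was at least 28.6-fold lower in KPYYF (adjusted p = 0.0351). It kept an adjusted p under 0.05 in 3 of the 9 fits that left out a library, those without KPF 4269, KPF 4601 or KPYYF 4449. In the other 6 the adjusted p was 0.0572 to 0.0893, it was 0.0605 with KPF 4504h and 4504s summed, and it was 0.160 with limma-voom.

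Adamts9 (ENSMUSG00000030022), another versican-cutting enzyme, had 3.05, 13.4 and 15.4 CPM as the lowest, median and highest KPF value. Its KPYYF values were 0.947, 5.89 and 0.437 CPM in 4449, 4891 and 4938. Only KPF 4601 and KPYYF 4891 kept the groups from separating. Adamts9 had a log2FC of -2.29 (SE 0.95, adjusted p = 0.248), and -4.08 without KPYYF 4891. Antisense transcripts overlap exons of Adamts9.

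Adamts1 (ENSMUSG00000022893), which cuts versican and aggrecan, had 65.2, 103 and 212 CPM as the lowest, median and highest KPF value, and 234, 574 and 136 CPM in KPYYF 4449, 4891 and 4938. Libraries 4449 and 4891 exceeded all KPF libraries and 4938 did not. For Adamts1 the log2FC was 1.46 (SE 0.43, adjusted p = 0.121). It was 0.70 without KPYYF 4891 (adjusted p = 0.482), and the adjusted p was 0.0277 with DESeq2. Adamts4 and Adamts5, the main aggrecanases of cartilage, had log2FC values of -0.96 and 0.58 (adjusted p = 0.632 and 0.909). Adamts5 spread over 0.0970 to 29.8 CPM in KPF and 0.118 to 36.1 CPM in KPYYF. Adamts8 and Adamts20 were too low to test, and neither exceeded 6.44 CPM.

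Of the 3 procollagen N-proteinases, which trim the amino end of fibrillar procollagens, Adamts14 (ENSMUSG00000059901) had 0.0970, 2.85 and 6.62 CPM as the lowest, median and highest KPF value. Its KPYYF values were 0.829, 18.9 and 36.9 CPM in 4449, 4891 and 4938. Libraries 4891 and 4938 were above all KPF libraries, and 4449 was near the bottom of their range. The log2FC of 2.74 (SE 1.07, adjusted p = 0.219) was 1.80 without KPYYF 4938. Adamts2, the main enzyme of this kind in skin, ranged from 5.34 to 212 CPM in KPF and from 0.711 to 36.6 CPM in KPYYF, and its log2FC had the other sign (-1.92, SE 1.22, adjusted p = 0.497). Adamts3 had at most 2.45 CPM.

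Adamts16 (ENSMUSG00000049538) had 0, 1.97 and 6.73 CPM as the lowest, median and highest KPF value and no read in KPYYF. KPF 4269 was at 0 too, so the groups met at the floor. Adamts16 was at least 8.05-fold lower against 3 counts (adjusted p = 0.178, and 0.0185 with DESeq2). Adamts7 and Adamts12, which cut cartilage oligomeric matrix protein, had log2FC values of 0.05 and -3.08 (adjusted p = 0.985 and 0.557), the latter from a gene below 7 CPM in every library. Adamts6 and Adamts10, the latter a partner of fibrillin microfibrils, had log2FC values of 1.24 and 0.21 (adjusted p = 0.755 and 0.902), and Adamts17 stayed below 0.3 CPM.

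The lowest adjusted p of all members was that of an ADAMTS-like gene. Adamtsl1 (ENSMUSG00000066113, chr4:85514172-86428385), a matrix protein without protease activity also called punctin, had 5.43, 18.5 and 27.9 CPM as the lowest, median and highest KPF value. In KPYYF it had 0 CPM in 4449 and 4891 and 0.109 CPM, 1 read, in 4938, against 961 reads over the KPF libraries. Every KPF library stood far above every KPYYF library. Adamtsl1 fell with a fitted log2FC of -8.41 (SE 1.21, adjusted p = 0.0141). The fitted value rests on 1 KPYYF read, and the 95% interval of the edgeR fit was -11.01 to -5.80. From reads pooled over each group, the ratio of KPF to KPYYF was 471 (95% exact interval 84.3 to 18609). That exact interval covers counting error only and leaves out the spread between libraries. The adjusted p stayed under 0.05 in all 9 fits that left out a library (0.00945 to 0.0491) and in the libraries with Xist reads (0.0369), and it was 0.125 with limma-voom. Adamtsl4 and Adamtsl5 overlapped between the groups, with log2FC values of -0.98 and -0.71 (adjusted p = 0.490 and 0.713), and Adamtsl2 and Adamtsl3 were not tested, at 4.90 CPM or less.

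**Figure D5:**
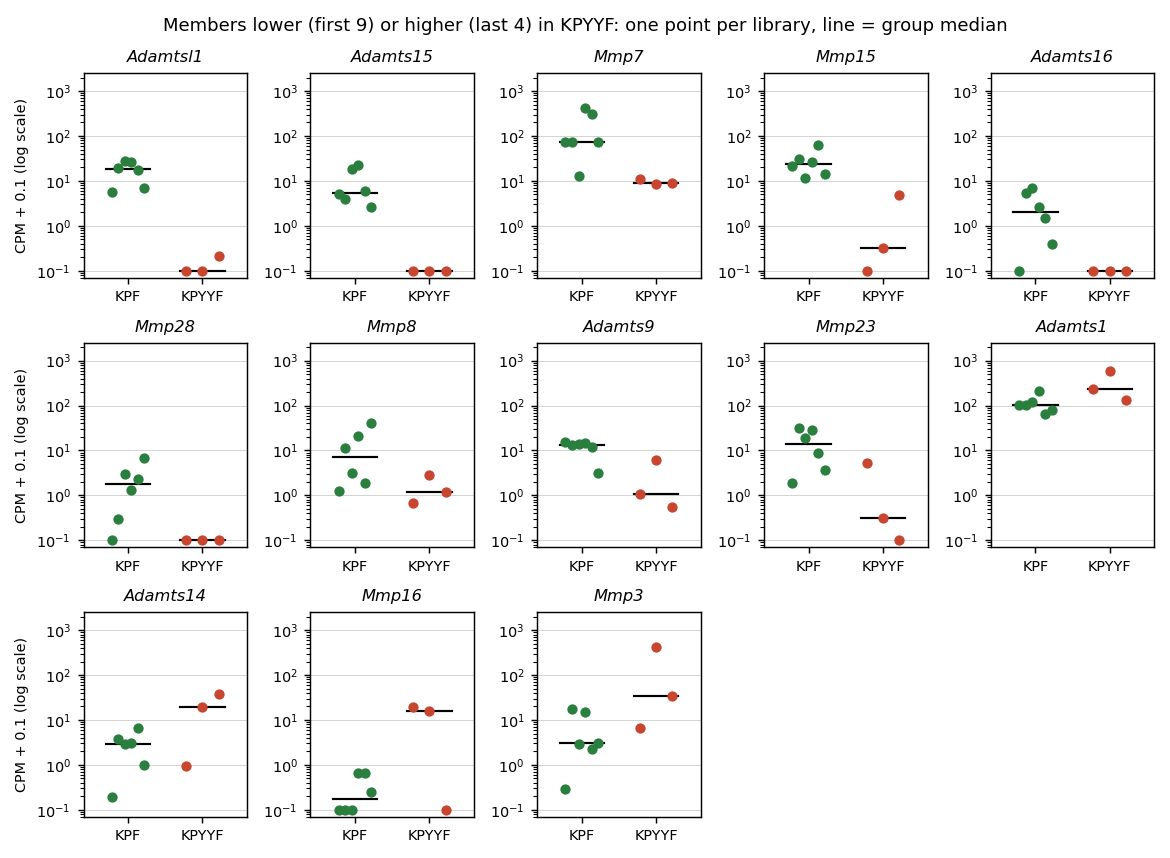
CPM plus 0.1 on a log axis for the 9 members lower and the 4 members higher in KPYYF by the looser rule, with a point per library and a line at each group median. Adamtsl1, Adamts15, Mmp7 and Mmp15 separated the groups, whereas each of the 4 higher genes had at least 1 KPYYF library within the KPF range.

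KPYYF 4891 was high in all 4 higher members, 4449 in Mmp16 and Adamts1, and 4938 in Mmp3 and Adamts14. Of the 8 fibroblast markers, Pdgfra and Dpt were higher and Acta2 lower by the looser rule. Pdgfra had 4.37 to 41.9 CPM in KPF and 24.3, 284 and 115 CPM in KPYYF 4449, 4891 and 4938 (log2FC 2.90, SE 0.77, adjusted p = 0.105). Pdgfra and Dpt were highest in 4891, as Mmp3 and Adamts1 were, whereas Mmp16 was highest in 4449 and Adamts14 in 4938. Acta2 had 3.10 to 96.8 CPM in KPF and 8.05, 5.78 and 9.51 CPM in KPYYF 4449, 4891 and 4938 (log2FC -2.65, SE 0.85, adjusted p = 0.15). The remaining fibroblast markers passed neither rule. The part of these markers in the higher members was not tested. Without KPYYF 4891, 2 members were higher by the looser rule. The 9 lower members were low in all KPYYF libraries with few exceptions, namely Mmp15 at 4.81 CPM in 4938, Mmp23 at 5.09 CPM in 4449, and Mmp8 and Adamts9 at 2.73 and 5.89 CPM in 4891. Without KPF 4504s, 5 members were lower by that rule.

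A list of 43 other genes of extracellular proteolysis was used to set the members among their activators, inhibitors and relatives. Of the 34 tested, 1 fell and none rose at an adjusted p under 0.05, 9 were lower and 0 higher by the looser rule, and the median log2FC was -0.95. Over all genes tested these shares were 0.794% and 0.305% at the adjusted threshold and 9.20% and 4.20% by the looser rule, and the median was -0.07. Adam28, Pappa and Adam19, read almost only in KPF, passed the minimum of reads for a test through that group alone. Adam28 had 191 reads in KPF and 0 in KPYYF, Pappa 729 and 5, and Adam19 1225 and 11. The numbers of lower and higher genes and the median therefore describe the 34 genes tested and not the pathway. The gene that fell at the adjusted threshold was Adam19, a membrane sheddase of growth factors. It had 3.10 to 39.1 CPM in KPF and 0.118, 0.436 and 0.656 CPM in KPYYF (log2FC -5.77, SE 0.96, adjusted p = 0.0176). Its relatives Adam8, Adam12 and Adam28 were lower by the looser rule, Adam28 with no read in KPYYF. So was Pappa, a protease of IGF-binding proteins, with a log2FC of -6.01 (SE 1.42, adjusted p = 0.0631). Among the activators that feed MMP activation through plasmin or proprotein cleavage, Plat, Plaur and Pcsk5 were lower by that rule, with Plat at 57.1 to 247 CPM in KPF and 46.8, 33.7 and 46.6 CPM in KPYYF (log2FC -1.98, SE 0.44, adjusted p = 0.0506). None of the 4 cathepsin genes passed either rule.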

How the data were processed

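RNA from FACS-sorted PDAC cells was sequenced as QuantSeq 3′ Fwd libraries (6 KPF, 3 KPYYF). The authors deposited raw counts per Ensembl gene and library, without normalization, and the submitters' processing notes name STAR, HTSeq and mm10. The paper's methods describe BeadChip hybridization with DESeq2 and a filter on summed reads, which the count files do not match. Genes took 37.3 to 42.0% of the reads listed, and the summary lines were left out of library sizes.

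Identifiers were matched to GENCODE M21 on GRCm38 (47224 of 47643). Genes with at least 100 counts in all (14105) were tested with edgeR 4.0.16's quasi-likelihood test (robust, TMM factors 0.832 to 1.08) in R 4.3.3, with two-sided p values and Benjamini-Hochberg adjustment at 0.05. The common biological coefficient of variation was 0.825. Standard errors are the log2 fold change over the square root of F. Folds against a group at 0 used 3 counts in each of its libraries. Promoters are from RefSeq (GRCm38.p6), which gave one for 35 members. Positions given for genes are those of GENCODE. Scripts were tested on simulated data.

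Alternatives were DESeq2 1.42.0, limma 3.58.1 voom with quality weights, RLE and upper quartile scaling, no filter, filterByExpr, KPF 4504h and 4504s summed, the 6 libraries with at least 1000 Xist reads, and each library left out. Members, roles, pathway genes and markers were chosen with earlier results of these data known. Members past either rule, without overlap, or among the Timp genes, Mmp2, Mmp9 and Mmp14 were given in full, and pathway genes were named where they passed the looser rule. Whether same-group libraries came from separate mice is known only from mouse numbers, and p values measure the spread between these libraries. Some alleles and single genes are not reported here.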

Additional observations from a re-analysis of the deposited data

Results flagged for a closer look

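Among the 33 tested members, 2 had a KPF library whose gap to its nearest neighbor took up more of the group's range of log2 CPM than Dixon's 95% critical value for 6 samples, and chance alone gives about 1 in 20. Adamts9 was lowest in KPF 4601, at 3.05 CPM against 11.7 to 15.4 CPM in the other KPF libraries, a share of 0.826. Adamts4 was lowest in KPF 4269, at 1.07 CPM against 14.4 to 54.7 CPM, a share of 0.647. KPF 4269 and 4601 were also the KPF libraries with the lowest fibroblast marker sums, 315 and 398 CPM. However, Adamts9 had its highest KPF value, 15.4 CPM, in KPF 4269. Adamts4 was at 14.4 CPM in KPF 4601. The part of the fibroblast markers in these values was not tested.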

How the results depend on the processing

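The median of the tested members was negative under all 17 alternatives, from -1.19 to -0.42. Members lower at an adjusted p under 0.05, 2 in the reported fit, numbered 7 with DESeq2, 0 with limma-voom, 1 in libraries with Xist reads, and 1 to 2 with a library left out (1 without KPF 4435, 4504s or 4515 or KPYYF 4891). Members higher numbered 3 with DESeq2, 1 without a filter and 0 with any library left out. By the looser rule, leaving out a library gave 2 (without KPYYF 4891) to 5 members higher and 5 (without KPF 4504s) to 11 lower. Non-overlapping members, recounted as an alternative chosen after seeing the data, were 0 to 2 higher and 4 to 6 lower with a library left out, and 13 were lower in the 3 against 3 libraries with Xist reads, where 10.9% of all genes tested were. KPF 4504h and 4504s, both among those 3 KPF libraries, bear the same mouse number. Pathway genes lower, 1 as reported, numbered 8 with DESeq2, 0 with limma-voom, 3 without a filter, 2 with filterByExpr and 0 (without KPYYF 4891 or 4938) to 3 (without KPF 4601) with a library left out. Yap1 had an adjusted p of 0.0771 with limma-voom (-4.56) and 0.0553 without KPYYF 4891 (-4.65), and its log2 fold change was -5.78 to -4.31 over fits that left out a library.

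Directions turned for Mmp2 (-0.51 with limma-voom, -1.85 without KPYYF 4891, -1.85 to 1.34 with a library left out), Mmp9 (0.04 with limma-voom, 0.15 in libraries with Xist reads, 0.59 without KPF 4601, -1.42 to 0.59 with a library left out), Timp1 (-0.06 in libraries with Xist reads, 0.04 without KPYYF 4938 to 1.12 without KPF 4504h) and Timp2 (0.01 without KPF 4504h, 0.12 without KPYYF 4449, -0.29 to 0.12 with a library left out), and the cause was not tested. Over all genes, the counts were 6 to 269 higher and 13 to 928 lower. Without a filter, the median of all genes moved to -0.310. No paired analysis was possible because the libraries of the groups come from different mice, and replicate numbers given here follow accession order only. At this depth 17 of 50 members had too few reads for a test, and 1 group of 3 libraries sets the precision of every comparison.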

Other observations

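Mmp1a, a rodent interstitial collagenase of the same chromosome 9 cluster, is annotated as a polymorphic pseudogene and therefore was no member. It had 60 reads in all, too few for a test. KPYYF libraries 4891 and 4938 held 27 reads each, at 2.94 and 2.95 CPM, KPYYF 4449 held none, and the 6 KPF libraries held 6 together, at no more than 0.306 CPM. Its neighbor Mmp1b had no read in any library. Mmp1a was singled out after its values were seen.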
